A study of Drosophila melanogaster with 2 samples.

Results

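Deep intronic Fer1 binding was described here as the peaks of the list past the authors' reproducibility threshold that lay on an autosome, with the summit more than 5 kb from the nearest annotated transcription start site (TSS) of any gene, inside a gene and in no exon. Of 7329 thresholded peaks, 596 (8.13%) met the rule. They lay on 2L (138), 2R (120), 3L (143), 3R (194) and chromosome 4 (1). The data came from ChIP-seq in Drosophila melanogaster embryos of both sexes aged 6 to 24 h, in 2 biological replicates of 1 group. The flies carried a transgene coding for Fer1 with a GFP tag at its C-terminus, and tagged Fer1 was precipitated with an antibody against GFP from chromatin sonicated to 200 to 800 bp. Whole embryos were used, so the cells in which a site was bound are unknown, and binding in few cells and weak binding in many cannot be told apart. A control library named in the labels was not used here, and no other condition was part of the study.

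Fer1 belongs to the basic helix-loop-helix (bHLH) transcription factors and is the fly relative of mammalian PTF1A, a regulator of pancreas and neuron development. Pairs of bHLH proteins recognise the E-box, CANNTG, in which N is any base, and PTF1A acts in a complex that also reads a second short element next to its E-box. Long introns of fly genes hold many known enhancers, which can act on the promoter of the gene around them or on another promoter nearby.

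The sequences at some of the highest of these summits are shown here to let the base content and the E-boxes at summits be read directly, including summits that differ from the average of the class. Each is 101 bp of the RefSeq Release 6 (dm6) plus strand, 5' to 3', centred on a summit or on a point 400 bp to one side of it. Capitals mark every CANNTG.
simj summit chr3L:10682958-10683058: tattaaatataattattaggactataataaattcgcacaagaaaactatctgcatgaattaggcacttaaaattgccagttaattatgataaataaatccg
simj flank chr3L:10683358-10683458: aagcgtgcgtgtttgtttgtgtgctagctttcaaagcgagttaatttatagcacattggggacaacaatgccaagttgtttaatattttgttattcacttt
tara summit chr3R:16236872-16236972: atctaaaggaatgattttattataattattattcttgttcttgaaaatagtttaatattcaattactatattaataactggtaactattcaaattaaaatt
tara flank chr3R:16236472-16236572: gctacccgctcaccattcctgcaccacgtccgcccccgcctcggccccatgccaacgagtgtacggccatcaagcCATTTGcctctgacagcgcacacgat
Gug summit chr3L:8458276-8458376: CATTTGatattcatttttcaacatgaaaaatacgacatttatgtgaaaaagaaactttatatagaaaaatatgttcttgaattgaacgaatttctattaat
Gug flank chr3L:8457876-8457976: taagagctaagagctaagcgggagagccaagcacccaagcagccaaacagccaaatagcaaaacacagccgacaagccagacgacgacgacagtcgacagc
Snoo summit chr2L:7932480-7932580: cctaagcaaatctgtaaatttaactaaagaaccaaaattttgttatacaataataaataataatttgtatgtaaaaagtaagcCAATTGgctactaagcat
crp summit chr2L:16269543-16269643: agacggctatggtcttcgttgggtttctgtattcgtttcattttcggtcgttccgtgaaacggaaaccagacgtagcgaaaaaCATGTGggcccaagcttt
spen summit chr2L:166645-166745: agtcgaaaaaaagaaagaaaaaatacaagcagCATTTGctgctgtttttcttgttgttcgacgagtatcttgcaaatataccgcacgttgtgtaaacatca
The simj and tara summits held no E-box and the Gug and Snoo summits held 1 each. The crp window held an E-box with TTTCC or GGAAA starting within 25 bp. The spen window held GTAAACA, a sequence bound by forkhead proteins, in the orientation shown. The tara summit had 15.8% G or C against 64.4% in its flank, simj 24.8% against 35.6% and Gug 20.8% against 54.5%. The crp and spen summits went the other way, with 47.5% against 33.7% and 35.6% against 33.7%.

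The highest deep intronic summits lay in sbb, simj and tara, which code for nuclear proteins. Signal is the authors' value per peak, in their own units, and each replicate value is that of the nearest summit in that replicate's own list. The highest member, at 2R position 18337201 in the second intron of sbb (FBgn0285917), had a pooled signal of 1397 and rank 73 of 7329, with 791 in replicate 1 and 595 in replicate 2. sbb codes for scribbler, a nuclear co-repressor. The next, at 3L position 10683008 in the first intron of simj (FBgn0010762), had a pooled signal of 1344, with 858 in replicate 1 and 520.4 in replicate 2. simj codes for the p66 subunit of the Mi-2/NuRD nucleosome remodelling complex. A summit at 3R position 16236922 in the first intron of tara (FBgn0040071), a cell cycle and trithorax group protein, had 1258 pooled, 774 in replicate 1 and 484 in replicate 2. In all 3, replicate 1 had the higher value, as it had in general.

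A summit at 2R position 10220081, in CG46321 and in the span of Hr3, a nuclear receptor of the ecdysone cascade, had a pooled signal of 1203, with 717 in replicate 1 and 492 in replicate 2. A summit in CG32486 at 3L position 3060781 had 1185 pooled, with 727 in replicate 1 and 464 in replicate 2. Gug, which codes for the co-repressor Atrophin, had 1036 pooled, with 620 in replicate 1 and 412 in replicate 2. These 6 were the members above a signal of 1000. The remaining members among the 25 highest had pooled signals from 928 down to 533. They lay in crp, a second site in simj, Lrch (2 sites), spen, wdb, Snoo (2 sites), gpp, Dhc36C, JIL-1, cic, S, sbb (2 further sites), Dad, Eip75B, CG13917 and Su(Tpl).

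Some of these hosts are described here by role, and others, such as Dhc36C, a dynein heavy chain, and wdb, a protein phosphatase subunit, have roles outside the nucleus or in general signalling. gpp codes for the H3K79 methyltransferase, and its summit had 654 pooled, 396 in replicate 1 and 262 in replicate 2. JIL-1, the histone H3 serine 10 kinase, had 644 pooled, with 396 in replicate 1 and 253 in replicate 2. cic codes for Capicua, an HMG-box repressor relieved by Ras signalling, and had 625 pooled, with 358 in replicate 1 and 255 in replicate 2. Star (S) traffics the EGF receptor ligand Spitz, and its summit had 613 pooled, 393 in replicate 1 and 229 in replicate 2. Dad, the inhibitory Smad of the Dpp pathway, had 595 pooled, with 321 in replicate 1 and 262 in replicate 2. Snoo, a Smad-binding protein, had sites of 690.1 and 686. Eip75B, an ecdysone-induced nuclear receptor, had 582 pooled, with 333 in replicate 1 and 241 in replicate 2. The Su(Tpl) summit (563) also lay in the span of Mi-2, the remodelling ATPase. In each of these sites replicate 1 was above replicate 2.

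As a class the deep intronic peaks had a median signal of 175 (quartiles 136 and 244, range 110.2 to 1397), against 182 over the list. They were rare among the strongest peaks. The 300 highest peaks included 9 (1.51% of members, against 4.09% of the list), and the 1000 highest included 44 (7.38%, against 13.6%). The thresholded peaks were the 7329 pooled peaks of highest signal, and the share of deep intronic summits was greater below that point, at 11.6% of ranks 7330 to 15000 and 15.2% of ranks 15001 to 30000. Peak width had a median of 308 bp against 360.0 bp over the list.

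Replicates were compared at each member. A peak counted as found in a replicate when one of that replicate's 7329 highest peaks overlapped it over at least 50% of both intervals. In both replicates, 303 members were found (50.8%, 95% Clopper-Pearson interval 46.7 to 54.9%), against a background of 54.1% over the list. With 1 bp of overlap it was 472 (79.2%), against 81.1%. Divided into 4 sets of 149 by signal, the members were found in both replicates in 79.2%, 57.7%, 45.0% and 21.5% from the highest set to the lowest, and other thresholded peaks in the same signal ranges in 80.5%, 53.1%, 51.7% and 23.3%. The member share was above that of the other peaks in 1 set and below it in 3. Across the 411 members matched by overlap in both replicate lists, the Spearman correlation of signal was 0.794 and the Pearson correlation of log10 signal was 0.865, as a description across peaks of the same 2 libraries. The median ratio of replicate 1 to replicate 2 signal was 1.49 (quartiles 1.30 and 1.75), against 1.48 over the list.

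**Figure D1:**
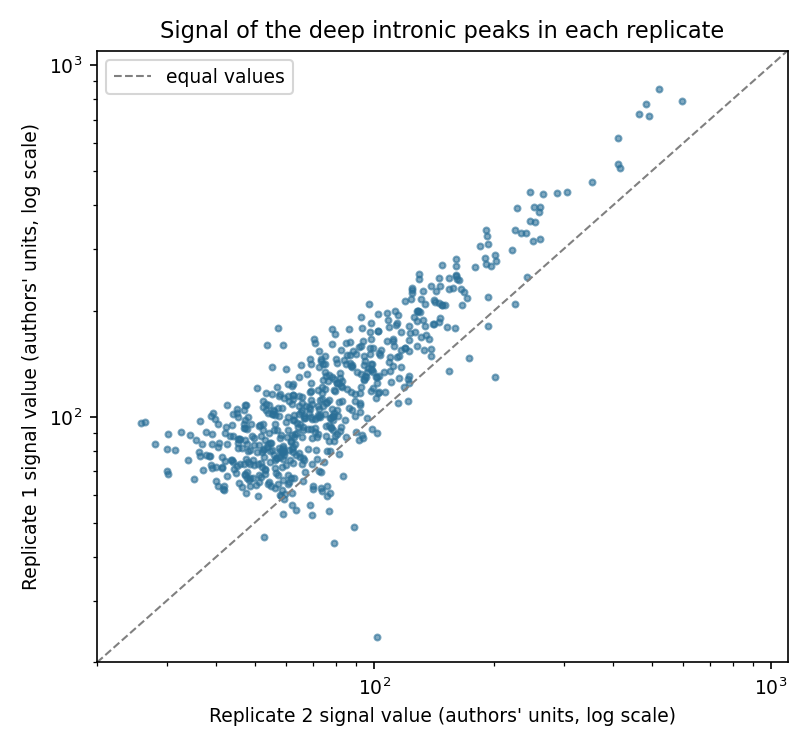
Signal value of deep intronic peaks in replicate 1 (vertical) against replicate 2 (horizontal), both in the authors' units on log scales, for the 591 of 596 members with a summit within 200 bp in both replicate lists. Most points lie above the dashed line of equal values, and the spread around the trend is widest at low signal.

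Density was measured against the sequence in which a member could lie, called eligible here: 22.9 Mb of autosomal intron more than 5 kb from any TSS. Undetermined (N) bases were left out, but how well reads map to the rest was not taken into account. Deep introns held 26.0 summits per Mb (exact Poisson interval 24.0 to 28.2). Autosomal introns 1 to 5 kb from a TSS held 60.4 per Mb (56.6 to 64.3; 974 summits), and sequence within 1 kb of a TSS held 144 per Mb (140.1 to 148.5; 4556 summits). Autosomal intergenic sequence more than 5 kb from a TSS held 10.2 per Mb (8.75 to 11.8; 174 summits). Deep introns on X held 31.7 per Mb (27.1 to 36.8; 170 summits). Deep introns were therefore between promoter-proximal introns and distal intergenic sequence, and the interval for X overlapped that of the autosomes. These intervals cover counting error over peaks, and the differences between classes were not tested over samples, since there is 1 group.

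Within the class, density was lower at each step away from a TSS. It was 43.7 per Mb at 5 to 7.5 kb (227 summits), 35.1 at 7.5 to 10 kb (127), 31.9 at 10 to 15 kb (141), 19.8 at 15 to 20 kb (47) and 7.42 beyond 20 kb (54). The interval for 7.5 to 10 kb (29.3 to 41.8) overlapped those for 5 to 7.5 kb (38.2 to 49.8) and 10 to 15 kb (26.8 to 37.6), and the intervals of the last 2 steps lay below these. Beyond 20 kb much of the sequence lay in very long genes: 23 genes with more than 100 kb of eligible sequence each held 27.0% of it (6.18 Mb) and 24 members, or 3.88 per Mb. Without those genes, the values were 45.1, 36.7, 33.7, 21.9 and 18.2 per Mb, so the order held and the last step was smaller. Signal did not follow the same order, with medians of 176, 173, 174, 159 and 182 from the nearest to the farthest step.

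**Figure D2:**
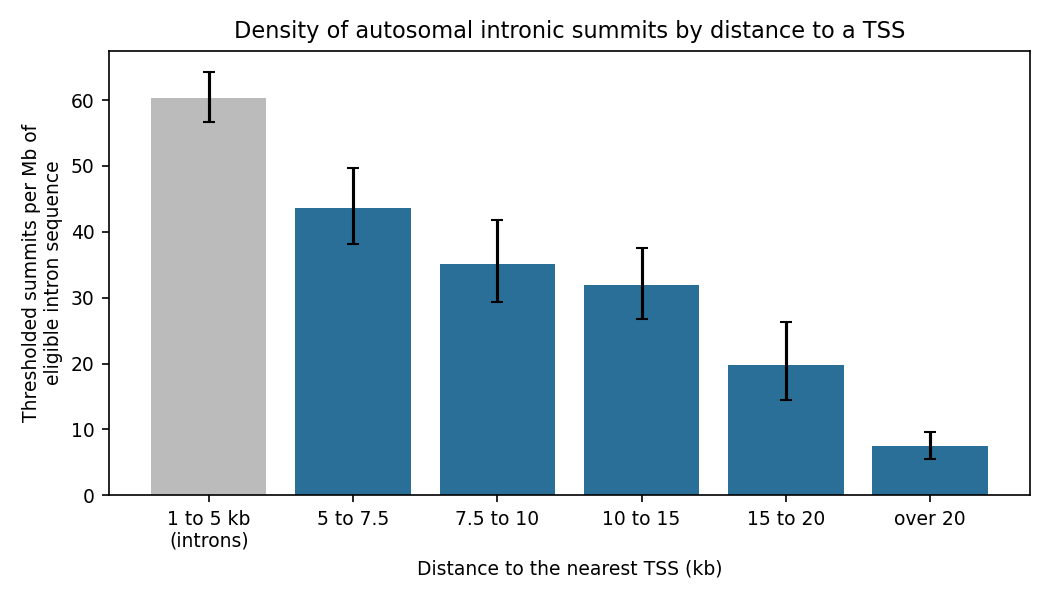
Thresholded summits per Mb of eligible autosomal intron sequence (vertical) by distance to the nearest TSS in kb (horizontal), with exact Poisson 95% intervals as error bars. The grey bar, introns 1 to 5 kb from a TSS, stands at 60.4 per Mb, and the blue bars of the deep introns descend from 43.7 to 7.42.

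By chromosome arm, density was 33.4 per Mb on 2L (28.0 to 39.4), 24.6 on 2R, 26.5 on 3L and 23.5 on 3R (20.3 to 27.1). The 8.24 Mb of eligible sequence on 3R included 1896149 bp in Myo81F and 689738 bp in Pzl, which held no member. The longest gene without a member on 2L had 122281 bp. Density by arm was not recomputed without such genes, and the differences between arms were not tested. Chromosome 4 held its single member, in zfh2, in 0.249 Mb (0.102 to 22.4 per Mb). The members next to the 5 kb limit were in bun, CG46429, CG46339, nuf and Lrch, from 5005 to 5040 bp. Just outside it, summits in tara, gpp, NK7.1, Eip75B and Nuak lay 4987 to 4996 bp from a TSS and had signals from 118 to 910.4.

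A larger share of the summits than of the eligible sequence lay in first and second introns. The first intron held 204 members (34.2%, 30.4 to 38.2%), the second 231 (38.8%) and later introns 161 (27.0%). Of 22893 positions spaced 1 kb apart over the eligible sequence, 20.4% lay in a first intron, 25.4% in a second and 54.1% in a later one. Without the genes of more than 100 kb the first-intron share of eligible positions was 25.2%. Host introns had a median length of 20759 bp, and summits lay a median of 4476 bp from the nearest exon, with 11 peaks whose interval touched one. The nearest TSS belonged to the host gene for 355 members (59.6%) and to another gene for the rest, at a median of 8745 bp and at most 49810 bp, in hth.

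The summits were gathered in a minority of genes. Of 1116 autosomal protein coding genes with at least 1 kb of eligible sequence, 309 (27.7%) held at least 1 member. Of these, 173 held 1, 136 held 2 or more and 25 held 5 or more. A summit inside several of these genes was counted for each, so the counts added to 614 and some overlapping genes share all their members. Runs of members within 5 kb of each other held 283 of the 596 (47.5%), in 106 runs. Since summits in a run share a locus, members are not independent of each other.

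The gene with most members was sbb, with 11 in its second intron of 65649 bp. Their pooled signals were 1397, 604, 551, 400.1, 341, 312, 268, 146, 145, 126 and 119, and 10 of them formed the longest run, over 17878 bp. In replicate 1 the sbb sites ranged from 65.6 to 791 and in replicate 2 from 30.3 to 595. tara had 8 members, of 1258, 374, 341, 312, 301, 213, 200.1 and 114, all in its first intron of 30338 bp. The same 8 summits in overlapping Glut4EF, a zinc finger gene, and CG46467 had signals from 110.2 to 209. simj had 7 members, all within 5470 bp: 1344 and 924, then 262, 227, 212, 126 and 121. Each of sbb, tara and simj thus had 1 or a few high summits among weaker ones, and Glut4EF had none above 209.

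Snoo also had 7 members, spread over its second intron of 78434 bp, with signals from 122 to 690.1. rdx, which codes for a BTB protein that directs turnover of the Hedgehog effector Ci, had 7 members, from 146 to 515. ftz-f1, an orphan nuclear receptor needed for segmentation and for ecdysone responses, had 7, from 153 to 429. crp, the bHLH leucine zipper relative of mammalian AP-4, had 6, from 122 to 928, over 11586 bp. Genes with 6 members also included fz, the Frizzled receptor of planar polarity, with signals from 130 to 357. The Homothorax gene hth, a homeodomain cofactor of Extradenticle, had 6 from 155 to 353. bun, the TSC22 relative, had 6 from 116 to 327, and px, a gene of wing vein patterning, had 6 from 117 to 297. SKIP, the last of the genes with 6, had signals from 130 to 286. A run of 5 members in eIF5B, a translation initiation factor gene, spanned 5938 bp. Its highest value was 523 pooled, with 339 in replicate 1 and 191 in replicate 2.

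**Figure D3:**
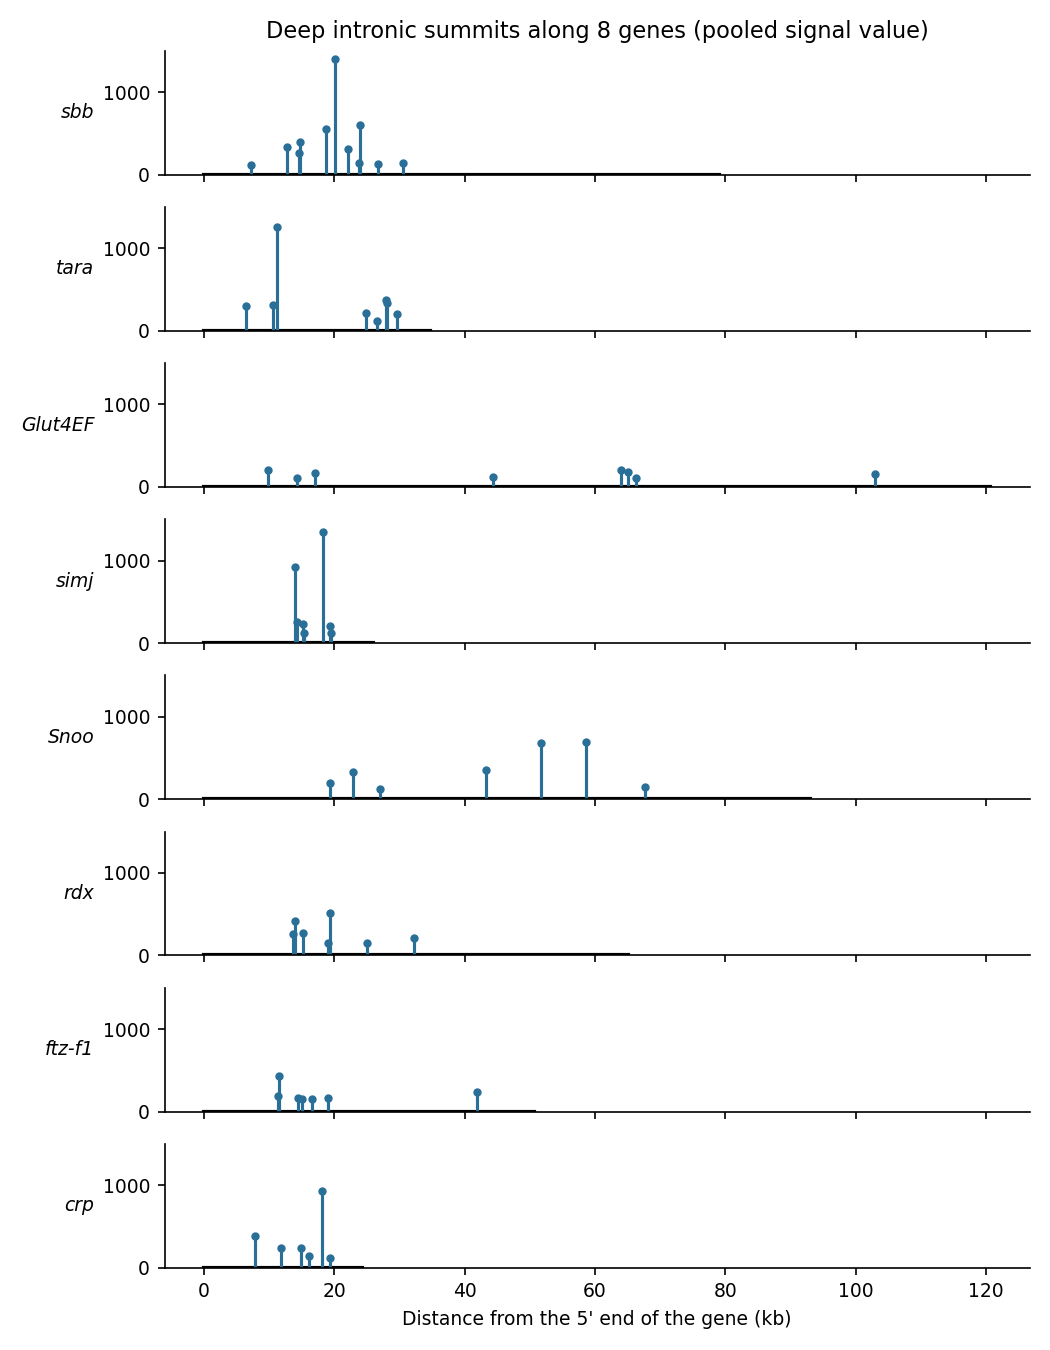
Deep intronic summits along the 8 genes with most members, with distance from the 5' end of the gene in kb (horizontal), the gene as a black line and the pooled signal value in the authors' units as the height of each stem. The stems of sbb, simj and crp stand close together within each gene, while those of Snoo and Glut4EF are spread along the gene; CG46467, which shares its summits with Glut4EF, is left out.

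Host genes also had promoter peaks. At least 1 thresholded summit lay within 1 kb of one of the gene's own TSSs in 220 of the 309 hosts (71.2%), against 283 of the 807 eligible genes with no member (35.1%). The same order was seen in genes of like length. It was 83.3% against 41.9% for genes with 1 to 5 kb of eligible sequence, 79.7% against 29.4% for 10 to 20 kb, and 60.0% against 20.9% above 50 kb. Among the genes with 6 or more members, Snoo, fz and SKIP had no promoter peak. The longest genes with no member were Myo81F, with 1896149 bp of eligible sequence, Pzl, lovit, CG17684 and DIP-lambda, and none of these had a promoter peak. Whether reads can be placed in the sequence of these genes was not checked.

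Genes of 11 lists by function were compared with all eligible genes, which held 26.5 summits per Mb. The lists of zinc finger and BTB factors, nuclear receptors, bHLH factors, signalling pathways, chromatin regulators and receptor kinases had intervals above that level, and the homeodomain list did not. That level depends on the longest genes. Without those of more than 100 kb of eligible sequence, density was 34.2 per Mb, inside the interval for receptor kinases (33.2 to 74.5). Genes with 10 to 20 kb of eligible sequence held 38.7 per Mb, inside the intervals for receptor kinases and bHLH factors (35.0 to 118). A share of 27.7% of all eligible genes held a member. For some lists of higher density the interval of this share included 27.7%. These were nuclear receptors (26.0 to 74.0%), bHLH factors (15.7 to 84.3%) and chromatin regulators (17.7 to 71.1%). It lay above 27.7% for zinc finger and BTB factors (36.9 to 70.5%), signalling (28.3 to 65.7%) and receptor kinases (30.6 to 69.4%). Density intervals count the summits of a run separately, and some genes with members are in more than 1 list. In the list of zinc finger and BTB factors, which also holds ETS, forkhead and homeodomain genes, 20 of 37 eligible genes held a member, at 64.8 per Mb (49.3 to 83.6). After sbb (1397) the highest signals were at bab1 (446), a BTB gene of leg and abdomen patterning, ush (402), a GATA cofactor, and dar1 (395), a Krüppel-like factor of dendrite growth. Of 18 nuclear receptor and ecdysone response genes 9 held a member, at 62.3 per Mb (39.5 to 93.4), led by Hr3 (1203), Eip75B (582), ftz-f1 (429) and tai (326), an ecdysone receptor coactivator. EcR itself had 1 member, of 115.

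Of 8 eligible bHLH genes, crp (928), sima (378), the fly HIF-alpha, tai (326) and cwo (292), a clock repressor, held a member, at 67.7 per Mb (35.0 to 118). Of the 12 members in this list, crp held 6 and tai, which is also in the nuclear receptor list, held 4. Genes of Notch, EGFR, Dpp, Wg and Hh signalling had 14 of 30 with a member, at 65.2 per Mb (44.6 to 92.1). The highest were S (613), Dad (595), the EGF receptor ligand gene vn (380) and fz (357). dpp itself had 1 member, of 227. Chromatin regulators had the highest density, 166 per Mb (92.9 to 274), in 6 of 14 genes with only 0.0903 Mb of eligible sequence, and tara gave 8 of the 15 members. After tara the highest were Mi-2 (563), the Polycomb group gene Psc (476) and psq (235).

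Receptor kinases, phosphatases and second messenger genes had 14 of 28 with a member, at 50.8 per Mb (33.2 to 74.5), led by hppy (395), a MAP4K, Tie (212), Pka-C1 (204), the protein kinase A catalytic subunit, and Ddr (202). In the list of muscle, salivary gland, midgut and tracheal genes, 10 of 22 held a member, at 44.8 per Mb (23.8 to 76.5). It was led by Zasp52 (485), a Z-disc protein, how (441), apt (417) and bnl (243), the FGF ligand of the trachea. CrebA, a secretory gene activator of the salivary gland, had 1 member, of 197. The interval of this last list included the value for all genes.

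Homeodomain genes were at 28.8 per Mb (17.1 to 45.5), with 7 of 39 genes holding a member (17.9%, 7.54 to 33.5%). The highest were in NK7.1 (470), Antp (395), hth (353) and cad (285). RNA-binding protein genes had 10 of 18 with a member but 18.3 per Mb (11.3 to 28.0), in long introns, with how (441), pum (355), a translational repressor, Rbp6 (305) and brat (281) highest. The 2 lists of neuronal effector genes had a lower density, but not a lower share of genes in both. Axon guidance and neuronal adhesion genes had 26 of 80 with a member (32.5%, 22.4 to 43.9%, against 27.7%) at 15.1 per Mb (10.7 to 20.6), led by the netrin receptor genes fra (343) and unc-5 (275), with babos (304) and Fas3 (283) between them. Ion channel and neurotransmitter receptor genes had 7 of 35 with a member (interval 8.44 to 36.9%), each with 1, at 10.5 per Mb (4.21 to 21.6), from Shal (152) to Elk (298), with Octbeta3R (285), Dop1R2 (278) and nAChRalpha6 (228) between them. Median eligible sequence per gene differed between lists, from 4.15 kb for chromatin regulators to 50.1 kb for RNA-binding proteins, and over all genes density was 63.9 per Mb in those with 1 to 5 kb of it and 12.9 per Mb above 50 kb. The part of gene length in the differences between lists was not tested.

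**Figure D4:**
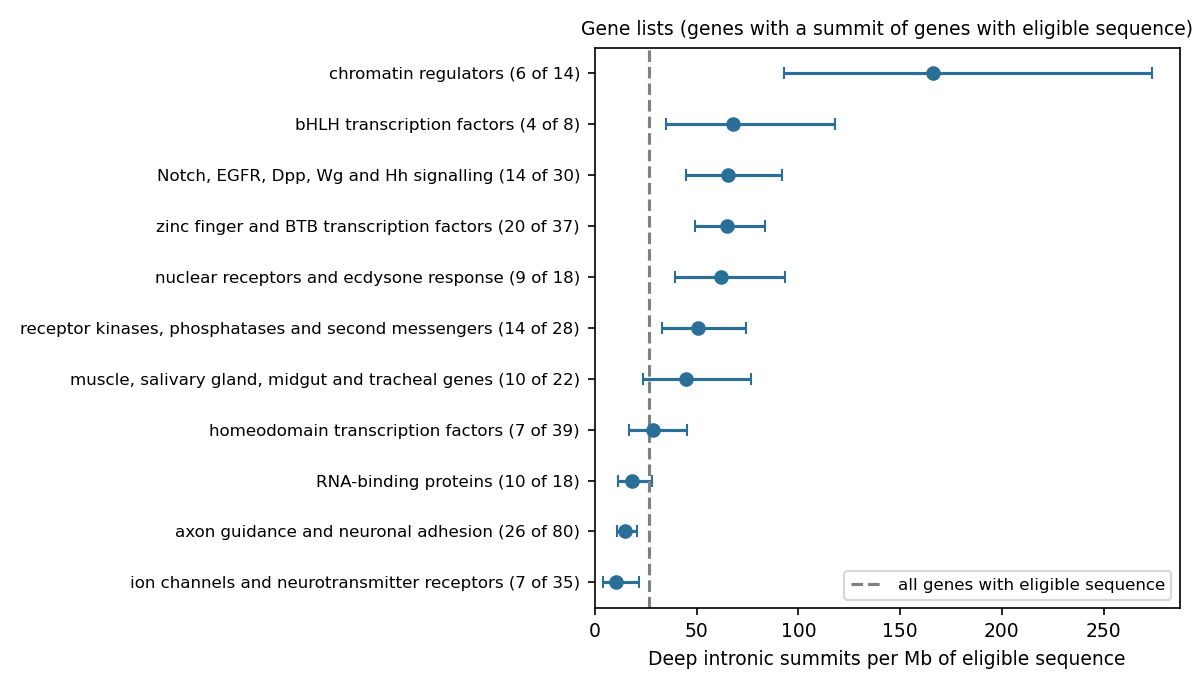
Deep intronic summits per Mb of eligible sequence (horizontal) for 11 gene lists, with exact Poisson 95% intervals, and the number of genes with a summit of those with eligible sequence in brackets. The dashed line is the value over all eligible genes, 26.5 per Mb; the points run from 10.5 for ion channels and neurotransmitter receptors to 166 for chromatin regulators.

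The sequence at the summits was rich in A and T. G or C made up 33.7% ± 8.98 (SD over 596 windows of 101 bp) at the summit, 42.4% in the flank 400 bp away and 40.4% over the eligible positions. It was lower at the summit than in the flank in 445 members (74.7%) and higher in 144. Values ranged from 15.8%, in tara, to 62.4%. At introns 1 to 5 kb from a TSS the mean was 35.4%, and at summits within 1 kb of a TSS 38.4%. The other distal classes were near the members, with 33.4% at autosomal intergenic summits more than 5 kb from a TSS and 33.5% in deep introns on X. Soft-masked (repeat) bases made up a mean of 24.0% of summit windows and 25.8% of windows at eligible positions. Beside the summits the mean was lower, at 20.5% in windows 400 bp to the side of lower genome coordinate and 18.1% to the other side. Introns 1 to 5 kb from a TSS had 21.1% at the summit, 17.8% and 16.8% in the same order. These shares were not tested.

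**Figure D5:**
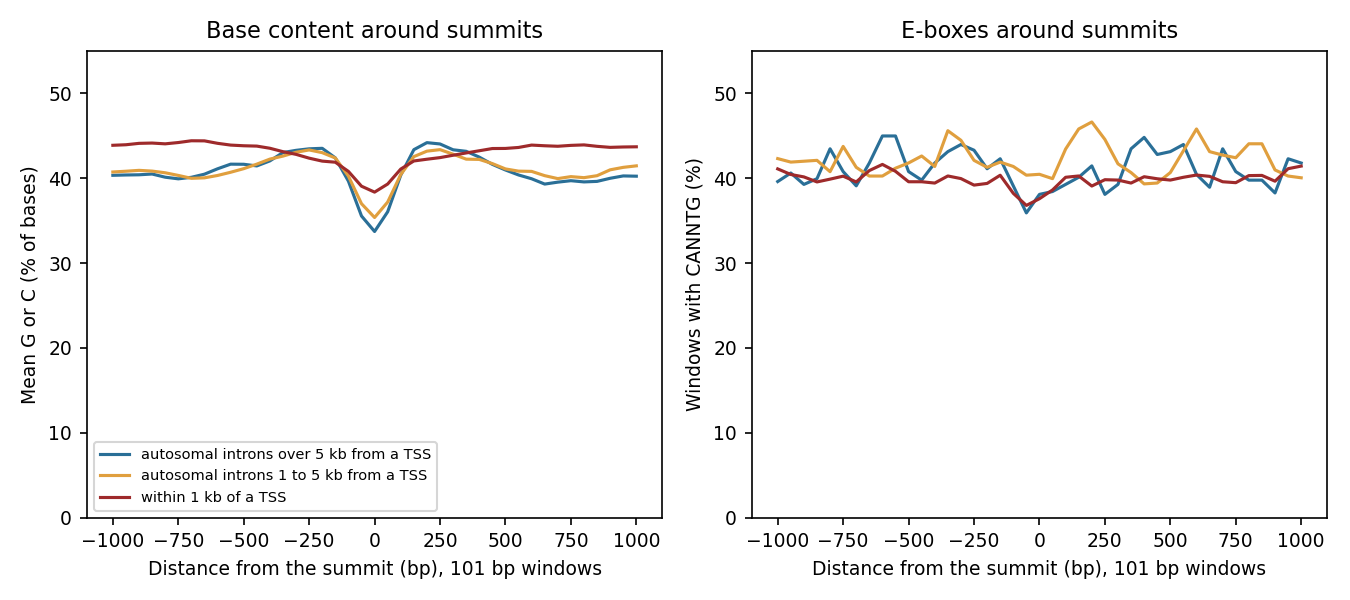
Mean percent G or C (left) and percent of windows with CANNTG (right) in 101 bp windows by distance from the summit in bp, for deep introns (blue), introns 1 to 5 kb from a TSS (yellow) and summits within 1 kb of a TSS (red). G or C in deep introns falls from 43.5% at -200 bp (lower genome coordinate) to 33.7% at the summit, and the E-box share at the summit, 38.1%, lies within the range of the windows around it.

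E-boxes were not more frequent at these summits than beside them. CANNTG was present in 227 windows at the summit (38.1%, 34.2 to 42.1%) and in 259 flanks (43.5%; exact McNemar test, two-sided, p = 0.0525). Among the 271 members in the 3664 highest peaks the summit share minus the flank share was -10.7 percentage points (exact McNemar test, p = 0.00934). Over all members with a flank 1 kb away, it was -1.34 points (exact McNemar test, p = 0.677). CANNTG was present in 8697 of the 22893 eligible positions and in 37.8% of all thresholded summits. Of the 10 strand-symmetric forms none was called after Benjamini-Hochberg adjustment (0.0% of forms), against 6 (60.0%) over all thresholded peaks. Of those 6, from 7329 windows, CAGCTG was more frequent at summits (5.94% against 4.45% of flanks) and the others less frequent. Among the members, CACATG alone had an unadjusted p under 0.05, with 26 summits against 44 flanks (exact McNemar test, p = 0.0385, adjusted p = 0.385). CAAGTG was in 36 summits against 51 flanks, and CAGCTG, a form bound by many bHLH proteins, in 16 against 20. CAATTG was in 36 against 23 and CATATG in 24 against 22. These were the 2 forms in more summits than flanks, and the other 8 were in fewer, none past the threshold.

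Because E-boxes hold G and C, the windows were also grouped by base content. Below 30% G or C, 67 of 224 summit windows held CANNTG (29.9%, 24.0 to 36.4%), against 24.9% of eligible positions and 23.1% of flanks. From 30 to 40%, 99 of 236 held it (41.9%, 35.6 to 48.5%), against 34.3% of eligible positions and 42.9% of flanks. Above that, 61 of 136 held it (44.9%), against 43.9% and 47.6%. Within base-content groups the summit share was therefore not below the eligible share, and its interval lay above it in the middle group. The two-part arrangement known for mammalian PTF1, CANNTG with TTTCC or GGAAA starting within 25 bp on either strand, was in 30 summit windows (5.03%), 45 flanks (7.55%) and 6.35% of eligible positions. Members with an E-box had a median signal of 173 and those without one 176.

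Of 2080 strand-symmetric hexamers, 115 were more frequent at the summit (5.53%) and 102 less frequent (4.9%) by exact McNemar tests with Benjamini-Hochberg adjustment over all of them. Over all 7329 peaks, with more windows, 1251 were called (60.1%), of which 422 were more frequent (20.3%) and 829 less frequent (39.9%). Of the 217 called in members, 206 were called there in the same direction. Without replicate 1, the class drawn from replicate 2 alone gave 116 called hexamers in place of 217. The count was 52 with a flank 1 kb away (31 higher and 21 lower), 58 within 25 bp of the summit (41 and 17) and 70 among the members in the 3664 highest peaks (48 and 22). The direction followed base content. Of 36 hexamers with no G or C 28 were called higher, and of 192 with 1 G or C 76 were, with none lower in either set. Of 36 with G and C only, none was called higher and 6 lower. TAAATA was in 185 summits and 87 flanks (31.0% against 14.6%; exact McNemar test, adjusted p = 4.84e-08). Its share at summits in introns 1 to 5 kb from a TSS was 30.1%. AAATAT was in 207 against 109, AATATT in 130 against 55 and TATAAA in 139 against 63, each with A and T only.

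TAAACA, which has a C, was in 124 summits and 46 flanks (20.8% against 7.72%; exact McNemar test, adjusted p = 6.18e-08) and had the largest difference of the 192 hexamers with 1 G or C. It was in 10.3% of eligible positions, 15.7% of all thresholded summits and 18.8% of summits in introns 1 to 5 kb from a TSS. GTAAACA, the forkhead site that contains it, was in 42 summit windows (7.05%, 5.13 to 9.41%), against 1.85% of flanks, 2.00% of eligible positions and 4.61% of all thresholded summits. Summits in introns 1 to 5 kb from a TSS held GTAAACA in 5.54%, which lies inside the interval of the members. In windows of 30 to 40% G or C it was in 24 of 236 summits (10.2%) against 2.40% of eligible positions, and above 40% in 13 of 136 (9.56%) against 1.72%. Below 30% it was in 5 of 224 (2.23%) against 2.08%. The spen sequence printed above carries it.

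The hexamers with the lowest adjusted p among those less frequent at summits were GCTGGA, in 5 summits against 34 flanks, CCAGCC in 9 against 41, CACACA in 44 against 97, GCTGCC in 19 against 57 and GGCGAA in 9 against 40. From 1 replicate alone, GCTGGA was not called in either (exact McNemar test, adjusted p = 0.118 without replicate 1 and 0.0858 without replicate 2), and CACACA was not called without replicate 1 (0.590). CACACA was in 8.87% of eligible positions, so its share in flanks, 16.3%, was above that level and its share at summits, 7.38%, near it. CACACACA was likewise in 1.51% of summits, 5.54% of flanks and 2.23% of eligible positions. Among other sequences, searched on both strands, the GATA site GATAAG was in 5.87% of summits against 3.52% of flanks, and TAATTA, read by homeodomain proteins, in 10.1% against 6.04%. Eligible positions held GATAAG in 4.03% and TAATTA in 7.20%, and all thresholded summits in 6.64% and 8.51%. GAGAG, the GAGA factor site, was in 11.9% against 14.8%, and CAGGTA, read by Zelda, in 1.85% against 0.839%. In eligible positions and all thresholded summits GAGAG was in 11.2% and 12.9%, and CAGGTA in 2.12% and 1.96%. AAGGTCA, read by nuclear receptors, was in 1.34% against 0.671%, GTGGGAA, read by Su(H), in 0.503% against 1.01%, and GCAGCAGC in 0.503% against 1.68%. Their shares of eligible positions were 0.992%, 1.22% and 1.39%, in that order. TGACTCA, the AP-1 site, was in 1.17% of both. TATCGATA, the DRE element of housekeeping promoters, was in 0 of 596 summits, which allows a share of up to 0.503% (3 counts of the total). It was in 0.223% of eligible positions, 0.168% of flanks and 1.80% of all thresholded summits, most of which lie near a TSS. These shares of single motifs were described, not tested.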

How the data were processed

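Fer1-GFP ChIP-seq peak lists on dm6 were read for 2 biological replicates, for the pooled replicates (30000 peaks each) and for the list past the authors' IDR threshold (7329). Signal values, −log10 q values and summit offsets are as deposited by the authors. The sources used here do not give the scale of the signal, the aligner, the peak caller or the IDR threshold. Peaks were ranked by signal, because the −log10 q values deposited by the authors share a maximum of 4.29 in the thresholded list. The dm3 lists were not used.

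TSSs, exons and genes came from the Ensembl annotation (release 115), with transposable elements left out, and sequence from RefSeq Release 6, the same assembly. The host of a single summit was the shortest protein coding gene around it, otherwise a non-coding gene. Counts per gene and per list took every protein coding gene that spans a summit. Introns were numbered in the longest host transcript that has the summit in an intron. Replicate values are those of the nearest replicate summit, which neighbouring members can share. 591 members had one within 200 bp in both replicates.

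Read totals were not at hand, so depth is unknown. Clopper-Pearson and Poisson intervals (95%) cover counting error over peaks only, and p-values treat peaks as units, not embryos. E-boxes and hexamers within 50 bp of a summit were compared with a window 400 bp away on a randomly drawn side (seed 1) by exact McNemar tests, two-sided, with Benjamini-Hochberg adjustment at 0.05, and the script was tested on simulated data. Python 3.11.15, numpy 2.4.6, scipy 1.17.1 and pandas 2.3.3 were used.

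Members and the 12 gene lists (769 symbols, of which 11 matched no gene or several) were chosen with earlier results of these data known. The values of 1 list and 1 summit sequence are not reported here. Genes named are the hosts of the 25 highest members, the 10 genes with most members and those tied with them, the 5 longest runs, up to 4 hosts per list and the members next to the 5 kb limit, with up to 5 hexamers in each direction. EcR, dpp, CrebA and the longest genes without a member were chosen after their values were seen, as was the grouping by base content. Alternatives were a single replicate, the 3664 highest peaks, coding TSSs, distinct intervals, other overlaps, windows and flanks, and leaving out the longest genes.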

Additional observations from a re-analysis of the deposited data

How the results depend on the processing

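No comparison between conditions was possible because there is 1 group, and the only pairing was of summit and flank windows. Of the counts, densities and shares recomputed under the alternatives, 42 values stayed near the reported value and 11 moved or changed their call. With the 3664 highest peaks the class had 271 members, 11.8 per Mb and a median signal 0.915 times that of those 3664 peaks. Of these members 71.2% were found in both replicates. Among them 70 hexamers were called and the CANNTG difference was -10.7 percentage points (exact McNemar test, p = 0.00934). CANNTG was not called under the other alternatives, and with a flank 1 kb away its difference was -1.34 points (exact McNemar test, p = 0.677). With 1 bp of overlap 79.2% were found in both replicates. Without genes of over 100 kb of eligible sequence, an alternative chosen after seeing the data, density was 34.2 per Mb. Within 25 bp of the summit 58 hexamers were called, and with a flank 1 kb away 52. The causes were not tested.

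From the highest peaks of 1 replicate alone, the class had 563 to 602 members, at 24.6 to 26.3 per Mb. Its median signal was 0.945 to 0.955 times that of the same replicate's highest peaks, and 34.2 to 35.2% of members lay in first introns. There were 116 to 204 hexamers called (116 without replicate 1). CANNTG differences ran from -5.15 to -3.20 points, with 0 E-box forms called in each. Of the single sequences, 160 values kept their side of the threshold without a reversed direction, where a difference of 0 was not taken as reversed. A further 12 lost their call, all 12 among the hexamers less frequent at summits. GCTGCC kept its call in 5 of 9 alternatives, GCTGGA and CACACA in 6 and CCAGCC and GGCGAA in 8. The 5 hexamers named as more frequent kept theirs in all 9. A flank on the other side, also added after seeing the data, ended the calls of CACACA (exact McNemar test, adjusted p = 0.0558) and GCTGCC (0.247). No called value changed direction, but 8 values of E-box forms, none of them called, did. CAGCTG (-0.671 points) was 1.42 without replicate 1, 1.50 without replicate 2, 0.168 within 25 bp and 0.168 with the other flank. CAAATG (-1.34) was 0.168 within 25 bp, CAGATG (-0.671) was 0.355 without replicate 1 and -0.831 without replicate 2, and CATATG (0.336) was -0.738 in the 3664 highest peaks and -0.336 within 25 bp.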
